A study of Mus musculus with 12 samples.

Results

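The genes examined encode the enzymes, transporters and regulators that carry glucose to pyruvate, pyruvate to acetyl-CoA and acetyl-CoA round the citrate cycle. They are 50 named genes, fixed by symbol: 23 of glycolysis and its side branches, 10 of the pyruvate dehydrogenase complex and its regulators, and 17 of the citrate cycle. All 50 were found among the 26264 genes with a count, and all 50 passed the filter on low counts, which left 13499 genes for testing. RNA was sequenced in 12 libraries from the tibialis anterior of mice, the fast muscle along the shin. Matrix gel was the treatment in 4 libraries, its vehicle phosphate-buffered saline (PBS) in 4, and the muscle was uninjured in the remaining 4. The gel was an extracellular matrix gel derived from tissue, per the series title, and 50 µl at 6 mg per ml went into the left muscle. The right muscle received 50 µl of PBS, so the side of the body cannot be told apart from the treatment. The deposited names carry the same numbers for gel and PBS libraries, read here as 2 legs of 1 animal, and other numbers for the uninjured libraries, which were all from left legs. Injury and injection therefore cannot be told apart from the animals in any comparison with uninjured muscle. The title speaks of acute and chronic disuse injuries, and no source used here gives the kind of injury in these animals, the time of collection, or the strain, age and sex.

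Glycolysis runs in the cytosol and splits glucose into pyruvate, with lactate as the alternative end product in fast muscle. Pyruvate dehydrogenase is the gate between glycolysis and the mitochondria: its kinases switch it off by phosphorylation and its phosphatase switches it on again. The citrate cycle then oxidises the acetyl group and feeds electrons to the respiratory chain. Fast-twitch fibres are known for very abundant glycolytic enzymes, and several steps have a muscle isozyme and a more widespread one.

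The promoters of 3 genes of the pyruvate dehydrogenase group are shown. Dlat and Pdhx were called higher in PBS against uninjured muscle and lower in gel against PBS, though several alternatives lost these calls. Pdp1 had the same 2 calls but no promoter window. Pdpr had the largest fall of all 50 in gel against PBS. Each window runs from 250 bases before to 50 bases after the transcription start and is taken from the RefSeq table for GRCm38.p6, which held windows for 45 of the 50 genes. The windows lie at chr9:50659731-50660030 on the minus strand (Dlat), chr2:103073464-103073763 on the minus strand (Pdhx) and chr8:111094495-111094794 on the plus strand (Pdpr), in that build and not in mm39, the build that the submitters' processing notes name. Capitals mark a match to a searched motif, and lower case is the rest.
Dlat: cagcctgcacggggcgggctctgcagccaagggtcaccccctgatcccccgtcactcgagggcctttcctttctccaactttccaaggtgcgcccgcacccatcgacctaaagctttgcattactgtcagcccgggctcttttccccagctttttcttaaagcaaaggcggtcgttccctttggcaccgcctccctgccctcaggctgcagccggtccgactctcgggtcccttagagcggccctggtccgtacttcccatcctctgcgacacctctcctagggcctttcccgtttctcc
Pdhx: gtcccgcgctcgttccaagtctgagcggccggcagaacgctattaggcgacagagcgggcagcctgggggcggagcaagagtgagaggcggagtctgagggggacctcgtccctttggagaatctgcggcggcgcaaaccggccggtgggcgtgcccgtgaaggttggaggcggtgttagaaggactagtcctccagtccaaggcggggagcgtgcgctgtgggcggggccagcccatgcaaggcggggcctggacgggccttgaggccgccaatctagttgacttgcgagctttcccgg
Pdpr: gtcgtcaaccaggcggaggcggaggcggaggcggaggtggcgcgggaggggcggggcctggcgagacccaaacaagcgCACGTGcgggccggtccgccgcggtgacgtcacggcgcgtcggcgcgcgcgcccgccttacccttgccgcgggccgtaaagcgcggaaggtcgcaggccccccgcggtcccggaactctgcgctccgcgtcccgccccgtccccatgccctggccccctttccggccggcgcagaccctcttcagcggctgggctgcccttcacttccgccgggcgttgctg
Motifs were searched on both strands, and neither motif contains the other. The E-box CACGTG occurred in the windows of 7 of the 45 genes (15.6%), Pdpr and Pdk2 among them, and in 8.09% of the 27025 genes in the table. The oestrogen-related receptor site AAGGTCA occurred in 5 of 45 (11.1%), none of them of the pyruvate dehydrogenase group, and in 5.38% of all genes. These matches describe the letters of the windows and nothing more.

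Library totals were 15626086 to 22182483 counts in gel, 16714543 to 20488409 in PBS and 15970781 to 18787964 in uninjured libraries. One library stood apart from its group: gel 3 scored 5.39 on the first principal component of all tested genes, against -67.4 to -91.4 for gel 1, 2 and 4 and 17.2 to 46.5 for PBS. The difference also appeared in markers of other cells. Macrophage markers summed to 988 to 1800 CPM (counts scaled by edgeR to a common library size) in gel 1, 2 and 4, 98.3 CPM in gel 3, 28.1 to 59.2 CPM in PBS and 39.4 to 78.2 CPM in uninjured libraries, with none of the 10 at 0 in every library. Markers of fast fibres, the fibres of the labelled muscle, summed to 175000 to 255000 CPM in gel, 249000 to 281000 CPM in PBS and 286000 to 319000 CPM in uninjured libraries. The counts of changed genes by step are therefore also given without gel 3.

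In gel-treated muscle against PBS, genes of pyruvate dehydrogenase and its regulators fell, as did a smaller share of citrate cycle genes, while glycolysis moved in both directions. Of the 50 genes, 4 rose and 16 fell (adjusted p under 0.05, edgeR quasi-likelihood test), which is 40% of them, against 29.8% of all 13499 genes. By step, 8 of 10 pyruvate dehydrogenase genes changed (1 higher, 7 lower), 7 of 23 glycolysis genes (3 higher, 4 lower) and 5 of 17 citrate cycle genes (0 higher, 5 lower). The shares by step were 80%, 30.4% and 29.4%, so those of glycolysis and the citrate cycle were near the share of all genes. Of all genes, 16.6% rose and 13.2% fell. The median log2 fold change was -0.52 over the pyruvate dehydrogenase genes, -0.24 over glycolysis and -0.33 over the citrate cycle, against 0.04 over all genes. All 17 citrate cycle genes had a negative fold change, between -0.60 and -0.17. The RNA came from whole muscle, in which fewer cells of a type and less RNA per cell cannot be told apart.

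**Figure D1:**
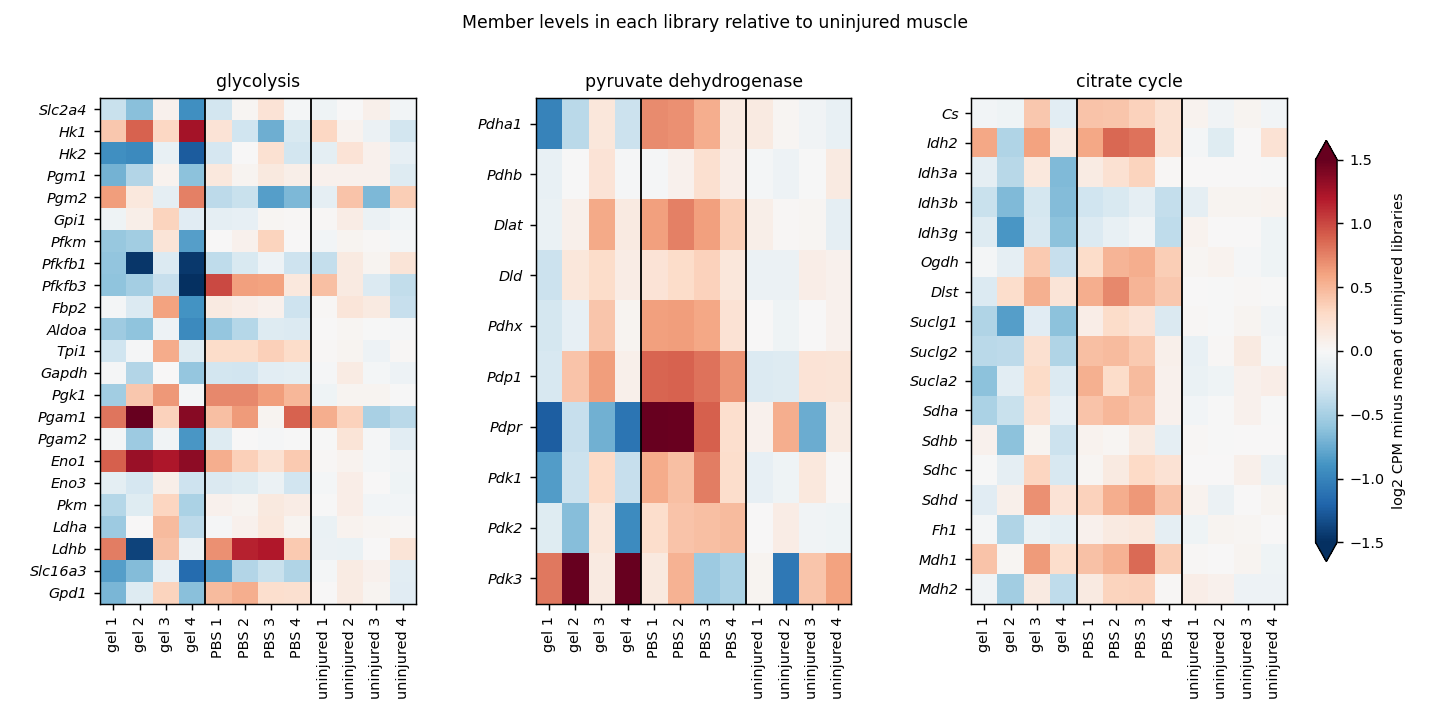
Log2 CPM of each of the 50 genes in each of the 12 libraries, minus the mean of the 4 uninjured libraries, with 1 panel for each step and colours cut at 1.5 and -1.5. The pyruvate dehydrogenase panel is mostly red in the PBS columns, and gel 3 resembles the PBS columns more than the other gel columns do.

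As a share of all counts, the pyruvate dehydrogenase genes together made up 0.201 ± 0.0245% in gel, 0.266 ± 0.00672% in PBS and 0.192 ± 0.00245% in uninjured libraries (SD, n = 4 each). All 4 PBS libraries, at 0.258 to 0.274%, lay above the gel libraries at 0.185 to 0.237% and the uninjured ones at 0.189 to 0.195%. Citrate cycle genes made up 0.864 ± 0.0799% in gel, 0.966 ± 0.0533% in PBS and 0.791 ± 0.0143% in uninjured libraries (SD, n = 4 each), and here the gel range of 0.761 to 0.948% overlapped both others. Glycolysis genes made up 9.30 ± 1.03% in gel, 9.0 ± 0.548% in PBS and 9.76 ± 0.174% in uninjured libraries (SD, n = 4 each), with the gel range of 8.15 to 10.5% covering those of PBS and uninjured libraries. These shares are weighted by the genes with most counts and were not tested.

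**Figure D2:**
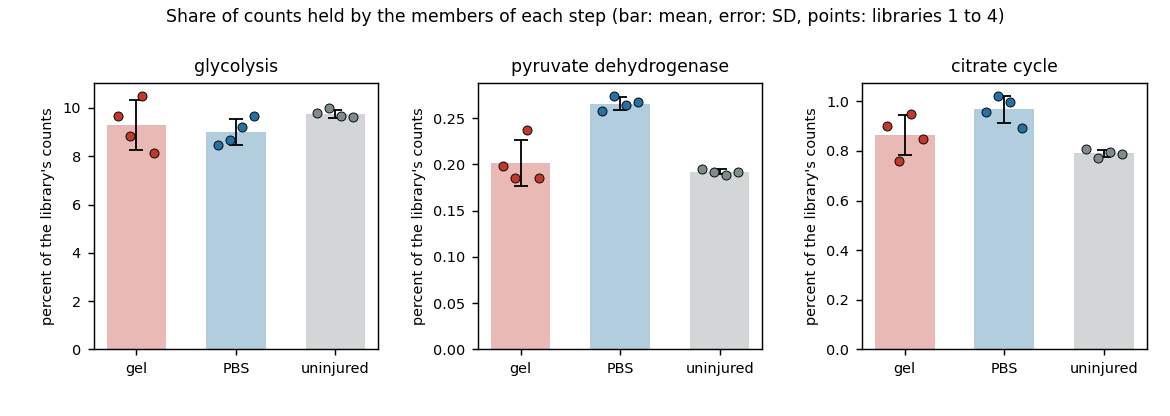
Percent of each library's counts held by the genes of each step, with bars for the mean of 4 libraries, error bars for the SD and points for libraries 1 to 4 from left to right. The PBS points of the middle panel lie above all gel and uninjured points, and the glycolysis points overlap among the groups.

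Leaving out gel 3 raised the counts in gel against PBS for glycolysis to 18 of 23 (4 higher, 14 lower) and for the citrate cycle to 13 of 17 (0 higher, 13 lower), and left pyruvate dehydrogenase at 8 of 10 (1 higher, 7 lower). The share of all genes that changed was then 42.7%. Without gel 1 or gel 2 glycolysis stood at 4 genes and without gel 4 at 3, and pyruvate dehydrogenase stood at 5 without gel 2, gel 4 or PBS 2. Calls over all genes dropped as well, from 4022 of 13499 with all libraries. They were 3500 of 13683 without gel 1, 2794 of 13599 without gel 2, 2456 of 13567 without gel 4 and 3007 of 13918 without PBS 2. For 13 of the 20 genes called with all libraries, gel 3 lay within the range of the PBS libraries, among them all 5 of the citrate cycle. For the other 7, Hk1, Pgm2, Pfkfb3, Eno1, Pdp1, Pdpr and Pdk2, gel 3 lay beyond every PBS library on the same side as the rest of its group. Gel 3 was the gel library nearest to PBS in 18 of the 20, the exceptions being Eno1 and Pdpr.

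In glucose uptake and priming, 5 of 11 genes changed in gel against PBS, 2 higher and 3 lower. Hk1, the widespread hexokinase that traps glucose in the cell, had 20.3, 28.4, 19.0 and 36.5 CPM in gel libraries 1 to 4 and 17.5, 12.4, 9.16 and 13.0 CPM in PBS libraries 1 to 4. In uninjured libraries it had 19.0, 15.8, 14.3 and 12.6 CPM. Every gel library exceeded every PBS library, with gel 3 the lowest of its group and level with uninjured 1. The log2 fold change of gel against PBS was 1.00 ± 0.23 (SE, adjusted p = 0.00549), and Hk1 was 1 of 4 glycolysis genes whose gel and PBS groups did not overlap, where 20.1% of all genes did not. Hk2, the insulin-responsive hexokinase of muscle, had 124, 120, 216 and 97.9 CPM in gel and 196, 233, 274 and 193 CPM in PBS libraries, with 211, 271, 243 and 215 CPM in uninjured ones. Gel 1, 2 and 4 lay below all PBS and uninjured libraries, and gel 3 lay among them. Hk2 fell by 0.68 ± 0.21 on the log2 scale in gel against PBS (SE, adjusted p = 0.0231). That call was lost without gel 1, gel 2, gel 4, PBS 2 or PBS 3, where adjusted p went up to 0.0752.

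Slc2a4, the insulin-responsive glucose transporter of muscle, had 609, 495, 801 and 405 CPM in gel, 635, 780, 879 and 752 CPM in PBS and 737, 772, 812 and 748 CPM in uninjured libraries. The gel and PBS ranges overlapped through gel 3, and the log2 fold change was -0.40 ± 0.18 (SE, adjusted p = 0.10). Pfkm, the muscle phosphofructokinase that commits sugar to glycolysis, had 1950, 2020, 3280 and 1620 CPM in gel and 2870, 3010, 3620 and 2870 CPM in PBS libraries. Its uninjured values were 2800, 2970, 2930 and 2830 CPM. Again gel 1, 2 and 4 lay below both other groups and gel 3 did not, and the log2 fold change of -0.48 ± 0.18 in gel against PBS missed the threshold (SE, adjusted p = 0.0569).

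Pfkfb3, a bifunctional enzyme that sets the level of the activator of phosphofructokinase, showed the deepest fall within glycolysis. It had 93.2, 98.9, 110 and 43.3 CPM in gel, 281, 217, 214 and 158 CPM in PBS and 193, 154, 123 and 109 CPM in uninjured libraries. All 4 gel libraries lay below all 4 PBS libraries, and the uninjured libraries spanned the gap and met the gel range at 109 CPM. Its log2 fold change in gel against PBS was -1.33 ± 0.27 (SE, adjusted p = 0.00436), or 2.52-fold lower. Pfkfb1, a related enzyme, had 66.9, 36.5, 86.8 and 36.6 CPM in gel, 77.0, 85.8, 95.3 and 80.8 CPM in PBS and 78.0, 110, 103 and 114 CPM in uninjured libraries. Gel 1, 2 and 4 lay below both other groups and gel 3 inside their ranges, with a log2 fold change of -0.58 ± 0.24 in gel against PBS (SE, adjusted p = 0.0875). With the pairs of legs as a block it passed, at -0.67 with adjusted p = 0.0468.

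The phosphoglucomutase genes Pgm1 and Pgm2 moved in opposite directions. Pgm2 had 9.62, 6.91, 5.62 and 10.5 CPM in gel, 4.69, 4.89, 3.43 and 3.84 CPM in PBS and 5.63, 8.34, 3.85 and 8.04 CPM in uninjured libraries. It rose in gel against PBS by 0.95 ± 0.26 on the log2 scale (SE, adjusted p = 0.014), with no overlap between those groups and with the uninjured values lying across both. The call was lost without gel 4, with adjusted p from 0.00187 to 0.0566 over the alternatives. Pgm1 had 572, 691, 969 and 610 CPM in gel, 1050, 962, 1040 and 999 CPM in PBS and 982, 976, 976 and 822 CPM in uninjured libraries. Gel 1, 2 and 4 lay below every PBS and uninjured library and gel 3 lay among them, and Pgm1 fell by 0.51 ± 0.16 on the log2 scale in gel against PBS (SE, adjusted p = 0.0226). Its call was lost with the block (-0.54, adjusted p = 0.0534) and without gel 1, gel 2, gel 4 or PBS 3, with adjusted p up to 0.0685. The symbols Pgm1 and Pgm2 have been exchanged between annotation versions, and they are used here as the files give them. The remaining genes of this part of glycolysis did not pass in gel against PBS: Gpi1, the isomerase after hexokinase, had a log2 fold change of 0.11, Fbp2, the muscle bisphosphatase that opposes phosphofructokinase, -0.04, and Aldoa, the muscle aldolase, -0.17.

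Among the enzymes from triose to pyruvate, 1 of 8 changed in gel against PBS. Eno1, the widespread enolase, had 230, 302, 286 and 313 CPM in gel, 180, 158, 144 and 161 CPM in PBS and 125, 128, 121 and 119 CPM in uninjured libraries. The 3 groups were stacked with no overlap, gel highest and uninjured lowest, and gel 3 sat with the rest of its group. Eno1 rose by 0.81 ± 0.12 on the log2 scale in gel against PBS (SE, adjusted p = 0.00127), or 1.76-fold. Reads of Eno1 could be shared with the near-identical intronless copy Eno1b, which had 6 to 406 counts in gel, 0 to 8 in PBS and 6 to 26 in uninjured libraries, against 1788 to 8592 for Eno1 over all libraries. Eno3, the muscle enolase, did not pass, with a log2 fold change of 0.05 ± 0.13 (SE, adjusted p = 0.809).

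Pkm, pyruvate kinase, had 4370, 5210, 7360 and 4240 CPM in gel, 6170, 6060, 6570 and 6360 CPM in PBS and 5850, 6320, 5730 and 5720 CPM in uninjured libraries. Gel 3 was the highest of all 12 and the other gel libraries were the lowest, and the log2 fold change in gel against PBS was -0.25 ± 0.16 (SE, adjusted p = 0.257). Ldha, the main lactate dehydrogenase of fast muscle, had 2440, 3550, 4950 and 2710 CPM in gel, 3510, 3710, 3950 and 3650 CPM in PBS and 3320, 3670, 3620 and 3610 CPM in uninjured libraries. Its gel values spread far to both sides of the others, and the log2 fold change was -0.12 ± 0.18 (SE, adjusted p = 0.654). Tpi1, Gapdh, Pgk1, Pgam1 and Pgam2, which act between aldolase and enolase, had log2 fold changes of -0.24, -0.02, -0.45, 0.63 and -0.28 and did not pass. Aldoa, Tpi1, Gapdh, Pgk1, Pkm and Ldha have processed pseudogenes that could take or give reads.

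On the branches to lactate and glycerol phosphate, Gpd1, the cytosolic glycerol phosphate dehydrogenase, fell by 0.62 ± 0.19 on the log2 scale in gel against PBS (SE, adjusted p = 0.0247). It averaged 789 ± 272 CPM in gel, 1210 ± 129 CPM in PBS and 930 ± 76.4 CPM in uninjured libraries (SD, n = 4 each), and gel 3, at 1160 CPM, lay inside the PBS range. The call was lost without gel 1, gel 2, gel 4, PBS 1 or PBS 2, with adjusted p up to 0.0771. Ldhb, the lactate dehydrogenase of oxidative tissue, had a log2 fold change of -0.77 ± 0.36 (SE, adjusted p = 0.125), and the lactate exporter gene Slc16a3 -0.14 ± 0.18 (SE, adjusted p = 0.601). In all, 16 of 23 glycolysis genes did not pass in this comparison.

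**Figure D3:**
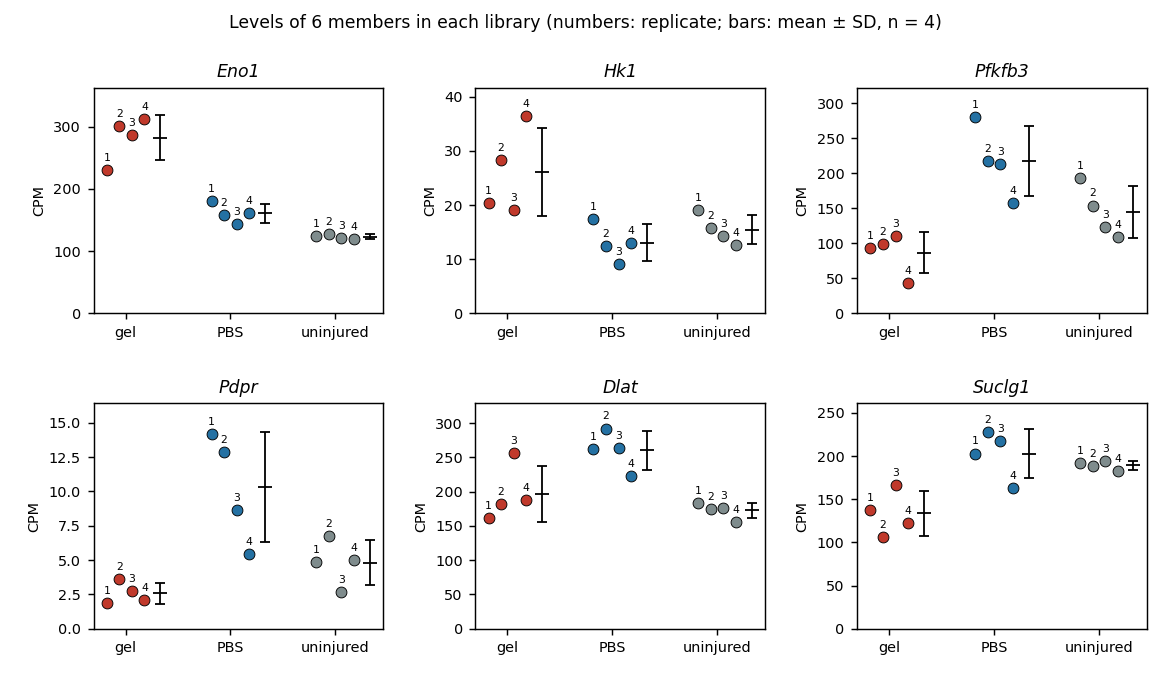
CPM of 6 genes in every library, with the replicate number above each point and the mean ± SD of 4 libraries beside each group. On average Eno1 and Hk1 were highest in gel, Pfkfb3, Pdpr and Suclg1 lowest in gel, and Dlat highest in PBS.

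Within pyruvate dehydrogenase, 3 of 5 subunit genes, both phosphatase genes and 2 of 3 kinase genes fell in gel-treated muscle against PBS, and 1 kinase gene rose. Pdha1, the catalytic alpha subunit that the kinases phosphorylate, had 80.5, 121, 181 and 129 CPM in gel, 263, 257, 234 and 176 CPM in PBS and 176, 164, 155 and 149 CPM in uninjured libraries. Gel 3 just passed the lowest PBS library, and the other 3 gel libraries lay below every PBS and uninjured library. Pdha1 fell by 0.86 ± 0.20 on the log2 scale (SE, adjusted p = 0.00549), or 1.82-fold. Pdhx, which anchors the third enzyme of the complex to its core, had 45.5, 50.4, 73.1 and 56.1 CPM in gel, 84.4, 84.6, 82.1 and 63.9 CPM in PBS and 55.2, 52.0, 54.8 and 56.9 CPM in uninjured libraries. Its gel and PBS ranges met through gel 3 and PBS 4, and it fell by 0.48 ± 0.14 (log2, SE, adjusted p = 0.0191).

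Dlat, the core acetyltransferase, had 161, 182, 256 and 188 CPM in gel, 262, 292, 263 and 223 CPM in PBS and 183, 175, 176 and 156 CPM in uninjured libraries. Gel 3 lay inside the PBS range and the other gel libraries near the uninjured ones, and Dlat fell by 0.40 ± 0.14 in gel against PBS (log2, SE, adjusted p = 0.0458). With the pairs of legs as a block neither gene passed, at -0.41 with adjusted p = 0.0966 for Dlat and -0.49 with adjusted p = 0.0525 for Pdhx. The Dlat call was also lost without any 1 of gel 1, gel 2, gel 4, PBS 1, PBS 2, PBS 3 or the 4 uninjured libraries, with adjusted p up to 0.123. The Pdhx call was lost without gel 2 or PBS 2, with adjusted p up to 0.0606. The other subunit genes, Pdhb of the catalytic part and Dld, the shared dihydrolipoamide dehydrogenase, did not pass, with log2 fold changes of -0.08 and -0.17.

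Both genes of the phosphatase that reactivates the complex fell. Pdp1, the catalytic subunit, had 39.6, 63.2, 72.8 and 49.6 CPM in gel, 85.5, 86.6, 82.7 and 74.5 CPM in PBS and 40.4, 41.2, 54.1 and 53.6 CPM in uninjured libraries. All gel libraries were below all PBS libraries, gel 3 narrowly so, and they spread on both sides of the uninjured ones. Pdp1 fell by 0.55 ± 0.17 in gel against PBS (log2, SE, adjusted p = 0.0226), a call lost without gel 1, gel 4 or PBS 2, with adjusted p up to 0.0654. Pdpr, the regulatory subunit that holds the phosphatase back, had 1.88, 3.60, 2.75 and 2.08 CPM in gel, 14.2, 12.9, 8.64 and 5.46 CPM in PBS and 4.83, 6.72, 2.70 and 5.0 CPM in uninjured libraries. The PBS libraries ranged widely but all exceeded every gel library, gel 3 included. Its log2 fold change of -2.0 ± 0.33 was the most negative among the 50 genes (SE, adjusted p = 0.00173), a 4.01-fold lower level.

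The kinases that inactivate the complex split. Pdk1 had 15.5, 22.3, 34.4 and 21.8 CPM in gel, 41.2, 38.1, 47.7 and 33.4 CPM in PBS and 25.7, 26.8, 31.1 and 28.3 CPM in uninjured libraries. It fell by 0.77 ± 0.19 in gel against PBS (log2, SE, adjusted p = 0.00807), with gel 3 just inside the PBS range. Pdk2, a kinase abundant in muscle, had 1050, 767, 1350 and 622 CPM in gel, 1440, 1610, 1630 and 1660 CPM in PBS and 1210, 1290, 1150 and 1140 CPM in uninjured libraries. All gel libraries lay below all PBS libraries, and Pdk2 fell by 0.74 ± 0.19 (log2, SE, adjusted p = 0.00977). Pdk3 went the other way, with 1.59, 4.92, 0.977 and 4.30 CPM in gel, 0.987, 1.31, 0.572 and 0.600 CPM in PBS and 0.910, 0.360, 1.22 and 1.39 CPM in uninjured libraries. Gel 1, 2 and 4 exceeded every other library and gel 3 did not, and Pdk3 rose by 1.76 ± 0.53 (log2, SE, adjusted p = 0.021). Its call was lost without gel 2, gel 4, PBS 3 or PBS 4 and in limma voom, with adjusted p up to 0.0835.

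In the first part of the citrate cycle, Ogdh, the first enzyme of the oxoglutarate dehydrogenase complex, was the 1 of 7 genes that fell in gel against PBS, by 0.43 ± 0.15 (log2, SE, adjusted p = 0.0391). It had 1230, 1140, 1650 and 982 CPM in gel, 1530, 1780, 1830 and 1620 CPM in PBS and 1280, 1300, 1240 and 1200 CPM in uninjured libraries. Gel 3 lay inside the PBS range, and the other gel libraries lay below it. Cs, citrate synthase, had 979, 965, 1330 and 901 CPM in gel, 1350, 1350, 1280 and 1180 CPM in PBS and 1040, 974, 1040 and 979 CPM in uninjured libraries. Gel 3 stood with PBS and the other 3 gel libraries with or under the uninjured ones, and the log2 fold change of -0.31 ± 0.13 did not pass (SE, adjusted p = 0.0964). Idh3a, the catalytic subunit of the NAD-dependent isocitrate dehydrogenase, had 583, 480, 721 and 409 CPM in gel, 698, 755, 811 and 654 CPM in PBS and 644, 646, 648 and 639 CPM in uninjured libraries. Its log2 fold change was -0.41 ± 0.16 (SE, adjusted p = 0.0564), and again only gel 3 reached the PBS range.

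Dlst, the core of the oxoglutarate dehydrogenase complex, had 205, 281, 340 and 268 CPM in gel, 345, 387, 334 and 311 CPM in PBS and 236, 233, 239 and 233 CPM in uninjured libraries. Its gel values covered the gap between the uninjured and the PBS values, and the log2 fold change in gel against PBS was -0.33 ± 0.14 (SE, adjusted p = 0.0843). Idh2, the NADP-dependent mitochondrial enzyme, Idh3b and Idh3g, which complete the NAD-dependent one, had log2 fold changes of -0.36, -0.21 and -0.27 and did not pass.

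From succinyl-CoA onwards, all 3 genes of succinyl-CoA ligase and 1 of succinate dehydrogenase fell in gel against PBS. Suclg1, the alpha subunit common to both forms of the ligase, had 138, 106, 167 and 123 CPM in gel, 203, 228, 217 and 163 CPM in PBS and 192, 188, 194 and 183 CPM in uninjured libraries. Every gel library lay below every uninjured library, and gel 3 and PBS 4 crossed by a small margin. Suclg1 fell by 0.60 ± 0.14 (log2, SE, adjusted p = 0.00697), or 1.52-fold. Suclg2, the beta subunit of the GTP-forming ligase, had 27.4, 27.7, 43.1 and 26.7 CPM in gel, 49.8, 50.4, 47.6 and 38.5 CPM in PBS and 33.7, 36.8, 39.8 and 35.7 CPM in uninjured libraries. Gel 1, 2 and 4 were close together and lowest, gel 3 far above them, and the gene fell by 0.58 ± 0.15 (log2, SE, adjusted p = 0.0111).

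Sucla2, the beta subunit of the ATP-forming ligase, had 121, 166, 227 and 161 CPM in gel, 268, 225, 256 and 193 CPM in PBS and 173, 176, 195 and 198 CPM in uninjured libraries. Gel 3 lay inside the PBS range and the other gel libraries below every PBS and uninjured one, and Sucla2 fell by 0.48 ± 0.17 in gel against PBS (log2, SE, adjusted p = 0.0385). Sdha, the flavoprotein of succinate dehydrogenase, had 314, 347, 506 and 399 CPM in gel, 587, 615, 585 and 458 CPM in PBS and 423, 431, 451 and 432 CPM in uninjured libraries. Gel 3 was above PBS 4 while the other gel libraries were below every uninjured one, and Sdha fell by 0.52 ± 0.15 (log2, SE, adjusted p = 0.0177). Sdhb, Sdhc and Sdhd, the other subunits, fumarase Fh1, and the malate dehydrogenases Mdh1 of the cytosol and Mdh2 of the mitochondria had log2 fold changes from -0.39 to -0.17 and did not pass. With the pairs of legs as a block, 2 citrate cycle genes passed in place of 5: Ogdh (-0.45, adjusted p = 0.0818), Sucla2 (-0.50, adjusted p = 0.0717) and Sdha (-0.53, adjusted p = 0.0586) did not. The Ogdh call was lost without any 1 library other than gel 3 or PBS 1, the Sucla2 call without gel 1, gel 2, gel 4, PBS 1, PBS 2, PBS 3, uninjured 2 or uninjured 3, and the Sdha call without gel 2 or PBS 2, with adjusted p up to 0.113, 0.0979 and 0.0572. The count was also 2 without gel 2 or PBS 2 and 3 without gel 1, gel 4, PBS 3, uninjured 2 or uninjured 3. Of all genes the block called 2971, and these omissions 2456 to 3789, against 4022 with all libraries. None of the 17 separated gel from PBS without overlap when all libraries were used.

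Marker genes of other cells moved alongside these changes, and their part in the result was not tested. In gel against PBS, 10 of 10 macrophage, 4 of 8 fibroblast and progenitor, and 5 of 6 proliferation markers rose, where 16.6% of all genes rose. Fibroblast and progenitor markers summed to 2750 to 3380 CPM in gel 1, 2 and 4, 536 CPM in gel 3, 464 to 1110 CPM in PBS and 529 to 826 CPM in uninjured libraries. Proliferation markers summed to 17.9 to 70.7 CPM in gel, 15 to 20.7 CPM in PBS and 16.4 to 19.5 CPM in uninjured libraries. Of 12 fast-fibre markers, 1 rose and 4 fell in gel against PBS, where 13.2% of all genes fell. In PBS against uninjured muscle 3 of them fell, where 3.39% of all genes fell. In gel against uninjured muscle 6 fell and 0 rose, where 11.1% of all genes fell. Of 22 respiratory chain subunit genes of the mitochondrial membrane, 2 fell in gel against PBS (9.09%, against 13.2% of all genes), with a median log2 fold change of -0.12. Of 6 satellite cell markers 2 rose and 1 fell in gel against PBS (50%, against 29.8% of all genes), at sums of 46.5 to 54.9 CPM in gel, 40.9 to 51.3 CPM in PBS and 47.7 to 53.9 CPM in uninjured libraries. No endothelial marker of 6 and no slow-fibre marker of 7 passed in gel against PBS, with sums of 168 to 503 CPM and 115 to 202 CPM in gel, 252 to 467 CPM and 97.0 to 166 CPM in PBS, and 287 to 374 CPM and 85.2 to 285 CPM in uninjured libraries. In gel against uninjured muscle 2 of the 7 slow-fibre markers rose, where 14.5% of all genes rose. They were Tnnt1, by 1.83 ± 0.57 (log2, SE, adjusted p = 0.0381), and Tnni1, by 2.67 ± 0.84 (adjusted p = 0.0411). For both, every gel library lay above every PBS library, but uninjured 4 lay above gel 1. Tnnt1 had 24.9 CPM in uninjured 4 and 23.7 CPM in gel 1. Tnni1 had 21 CPM in uninjured 4 and 19 CPM in gel 1. Of the 6 lymphocyte, 5 adipocyte and 5 erythroid markers, 2, 2 and 1 had enough counts to be tested and none passed. The 5 neutrophil markers summed to at most 1.94 CPM in gel, 0.592 CPM in PBS and 0.720 CPM in uninjured libraries, with Ly6g at 0 in every library.

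In PBS-treated muscle against uninjured muscle, some pyruvate dehydrogenase and citrate cycle genes rose and no glycolysis gene passed. Of 10 pyruvate dehydrogenase genes 3 rose (30%), as did 2 of 17 citrate cycle genes (11.8%), against 2.79% of all genes that rose, 3.39% that fell and 6.17% that changed. The median log2 fold change was 0.52 over pyruvate dehydrogenase, with 9 of 10 positive, and 0.34 over the citrate cycle, with 15 of 17 positive. Glycolysis had a median of -0.01 and 0 of 23 genes past the threshold in edgeR, the smallest adjusted p being 0.0556, although 4 were higher and 2 lower at an unadjusted p under 0.05. DESeq2 called 3 of these genes and limma voom 0, with 1417 and 742 of all 13499 genes. The groups did not overlap for 9 glycolysis, 6 pyruvate dehydrogenase and 9 citrate cycle genes, where 20.6% of all genes did not overlap. This comparison uses the same PBS libraries as gel against PBS, so a high value in PBS enters both.

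The genes that rose were Pdp1 by 0.80 ± 0.17 (log2, SE, adjusted p = 0.0105), Dlat by 0.59 ± 0.14 (adjusted p = 0.0234) and Pdhx by 0.52 ± 0.14 (adjusted p = 0.0385). The values given above for all 3 show every PBS library above every uninjured library. These 3 are also genes that fell in gel against PBS, and none of them passed in gel against uninjured muscle, where the log2 fold changes were 0.25, 0.19 and 0.04. Pdha1, Pdk1, Pdk2 and Pdpr had log2 fold changes of 0.53, 0.52, 0.40 and 1.10 in PBS against uninjured muscle and did not pass. In the citrate cycle, Dlst rose by 0.55 ± 0.14 (log2, SE, adjusted p = 0.03), its lowest PBS library at 311 CPM against its highest uninjured library at 239 CPM. Mdh1, the cytosolic malate dehydrogenase, had 453, 343, 523 and 403 CPM in gel, 457, 483, 604 and 435 CPM in PBS and 340, 336, 346 and 323 CPM in uninjured libraries. All PBS libraries lay above all uninjured ones, and Mdh1 rose by 0.56 ± 0.14 (log2, SE, adjusted p = 0.0318).

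These counts were sensitive to single libraries. Without gel 3, which enters this comparison through the shared estimate of the spread and through the filter on low counts, 3 glycolysis, 6 pyruvate dehydrogenase and 8 citrate cycle genes passed in PBS against uninjured muscle, with 12.1% of all genes. Without PBS 1, PBS 2, PBS 3 or any 1 of the 4 uninjured libraries, 1 pyruvate dehydrogenase gene and 0 citrate cycle genes passed. Calls over all genes dropped too, to between 378 of 13972 and 575 of 13922, from 833 of 13499. Without gel 1, 2 glycolysis, 6 pyruvate dehydrogenase and 3 citrate cycle genes passed, and without gel 2 the counts were 1, 2 and 3. Without gel 4, 2 pyruvate dehydrogenase genes passed. Of all genes, 1104 of 13683 passed without gel 1, 788 of 13599 without gel 2 and 864 of 13567 without gel 4. The calls of Dlat, Pdhx, Dlst and Mdh1 were each lost without PBS 1, PBS 2, PBS 3 or any 1 uninjured library, and that of Pdhx also without gel 2 or gel 4, with adjusted p up to 0.0956, 0.119, 0.109 and 0.109. Pdp1 was the 1 gene of the 5 that passed in all 17 alternatives, with adjusted p from 5.37e-05 to 0.0477.

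**Figure D4:**
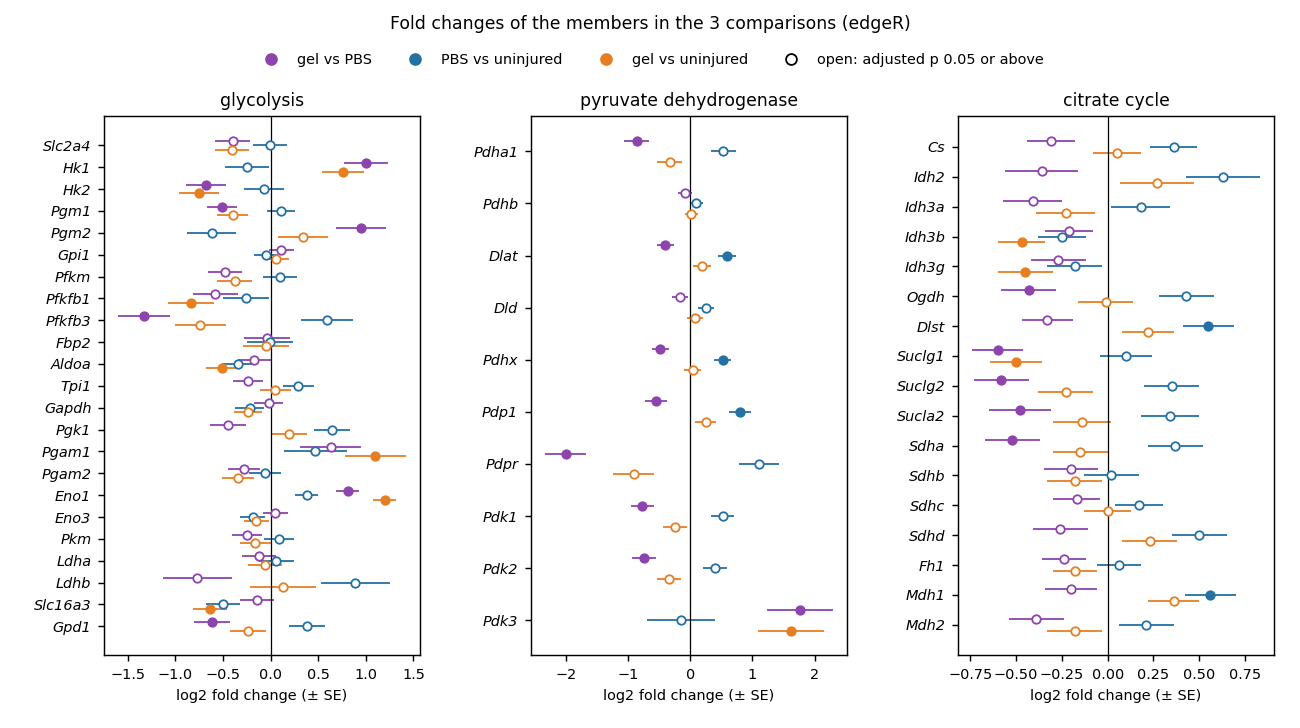
Log2 fold change ± SE from edgeR for each of the 50 genes in gel against PBS, PBS against uninjured and gel against uninjured muscle, with filled points where adjusted p was under 0.05. In the pyruvate dehydrogenase and citrate cycle panels the gel against PBS points lie mostly left of 0 and the PBS against uninjured points mostly right of it, and both contrasts use the same PBS libraries.

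In gel-treated muscle against uninjured muscle, 7 of the 11 changes were in glycolysis, a share of its genes near that of all genes. Of 23 glycolysis genes 3 rose and 4 fell (30.4%), of 10 pyruvate dehydrogenase genes 1 rose (10%) and of 17 citrate cycle genes 3 fell (17.6%), against 25.6% of all genes, 14.5% up and 11.1% down. Eno1 rose by 1.20 ± 0.12 (log2, SE, adjusted p = 3.35e-05), or 2.30-fold, with adjusted p of at most 0.000575 over 17 alternatives. Pgam1, the widespread phosphoglycerate mutase, had 5.13, 9.75, 3.72 and 7.57 CPM in gel, 4.0, 4.57, 2.98 and 5.4 CPM in PBS and 4.26, 3.72, 2.03 and 2.15 CPM in uninjured libraries. Gel 1, 2 and 4 exceeded every uninjured library and gel 3 did not, and Pgam1 rose by 1.10 ± 0.32 in gel against uninjured muscle (log2, SE, adjusted p = 0.0207). Hk1 rose by 0.76 ± 0.22 (adjusted p = 0.0233) although its lowest gel library and its highest uninjured library were level at 19.0 CPM. Without gel 2, gel 4, uninjured 3 or uninjured 4 neither Hk1 nor Pgam1 passed, and Hk1 also did not without uninjured 2, with adjusted p up to 0.0992 and 0.0897.

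The 4 glycolysis genes that fell in gel against uninjured muscle were Hk2, Pfkfb1, Aldoa and Slc16a3. Slc16a3, the exporter of lactate from glycolytic fibres, had 312, 355, 512 and 252 CPM in gel, 313, 410, 444 and 408 CPM in PBS and 547, 606, 580 and 499 CPM in uninjured libraries. Gel 3 alone of the gel libraries reached the uninjured range, and all PBS libraries lay under it. Slc16a3 fell by 0.64 ± 0.18 (log2, SE, adjusted p = 0.019), a call lost without gel 4, uninjured 2 or uninjured 3, with adjusted p up to 0.0551. Hk2 fell by 0.75 ± 0.21 (adjusted p = 0.0163), lost without gel 2 or uninjured 2, with adjusted p up to 0.0524. Pfkfb1 fell by 0.84 ± 0.24 (adjusted p = 0.0228), lost without gel 2, gel 4, uninjured 2, uninjured 3 or uninjured 4, with adjusted p up to 0.0585. Aldoa, at 29600 ± 7530 CPM in gel and 42000 ± 664 CPM in uninjured libraries (SD, n = 4 each), fell by 0.51 ± 0.17 (adjusted p = 0.0383), a call lost without any 1 of gel 1, gel 2, gel 4 or the 4 uninjured libraries, with adjusted p up to 0.096. Aldoa was, with Eno1, 1 of 2 glycolysis genes whose gel and uninjured groups did not overlap, where 23% of all genes did not.

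In the other steps, Pdk3 rose by 1.62 ± 0.53 in gel against uninjured muscle (log2, SE, adjusted p = 0.0346), lost without gel 2, gel 4, uninjured 1, uninjured 2 or uninjured 3 and in limma voom, with adjusted p up to 0.132. Idh3b, a regulatory subunit of the NAD-dependent isocitrate dehydrogenase, had 721, 574, 760 and 580 CPM in gel, 739, 777, 827 and 708 CPM in PBS and 832, 934, 932 and 943 CPM in uninjured libraries. All gel and all PBS libraries lay below all uninjured ones, and Idh3b fell by 0.47 ± 0.13 in gel against uninjured muscle (log2, SE, adjusted p = 0.015), which held in all 17 alternatives with adjusted p of at most 0.0474. Idh3g, the other regulatory subunit, had 618, 384, 597 and 458 CPM in gel, 611, 651, 679 and 542 CPM in PBS and 730, 710, 705 and 669 CPM in uninjured libraries. All gel libraries lay below all uninjured ones, and Idh3g fell by 0.45 ± 0.15 (adjusted p = 0.0365) and Suclg1 by 0.50 ± 0.14 (adjusted p = 0.0189). Both calls were lost without gel 2 or gel 4, and Idh3g also without any 1 uninjured library, with adjusted p up to 0.0976 for Idh3g and 0.0613 for Suclg1. The catalytic subunit Idh3a had a log2 fold change of -0.23 ± 0.16 (adjusted p = 0.287). Without gel 3 the counts in gel against uninjured muscle were 15 glycolysis, 4 pyruvate dehydrogenase and 6 citrate cycle genes, with 38.3% of all genes. Without gel 2 they were 2, 1 and 1, and without gel 4 they were 2, 0 and 1. Glycolysis fell to 2 genes without uninjured 2 or uninjured 3 and to 3 without uninjured 4, pyruvate dehydrogenase stood at 0 without uninjured 1 or uninjured 2 and at 2 without PBS 4. Calls over all genes were 2411 without gel 2, 2275 without gel 4 and 3545 without PBS 4, against 3449 with all libraries. Without 1 uninjured library they were 2510 to 2794.

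Over the 3 comparisons, 28 of the 50 genes passed in at least 1 and 22 in none. Of the 22, 12 were glycolysis genes, 2 pyruvate dehydrogenase genes and 8 citrate cycle genes. Calls that held in every alternative in gel against PBS were 9 of 20: Hk1, Pfkfb3 and Eno1 in glycolysis, Pdha1, Pdpr, Pdk1 and Pdk2 in pyruvate dehydrogenase, and Suclg1 and Suclg2 in the citrate cycle. In a fit of only the 2 groups compared, 9 of the 20 calls in gel against PBS were lost, those of Hk2, Pgm1, Gpd1, Dlat, Pdhx, Pdp1, Ogdh, Sucla2 and Sdha, with adjusted p up to 0.112. In the same kind of fit of gel against uninjured muscle, the calls of Pfkfb1, Aldoa, Pdk3 and Idh3g were lost, with adjusted p up to 0.0674. With no filter on low counts Dlat missed the threshold in gel against PBS (adjusted p = 0.0503) and Aldoa in gel against uninjured muscle (adjusted p = 0.0566), and in limma voom Pdhx missed it in PBS against uninjured muscle (adjusted p = 0.0506).

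Isozymes and partner genes were then compared within each library as log2 ratios of CPM plus 0.5. The 10 ratios in 3 comparisons gave 30 exact two-sided permutation tests, the smallest p possible with 4 libraries against 4 being 0.0286. In gel against PBS these tests left out the pairing of legs. With 4 pairs the smallest p of an exact test would be 0.125. After adjustment over the 30 the smallest was 0.143, so none passed. The log2 ratio of the muscle enolase to the widespread one, Eno3/Eno1, was 4.30 ± 0.30 in gel, 5.06 ± 0.19 in PBS and 5.64 ± 0.04 in uninjured libraries (SD, n = 4 each), with no overlap among the 3 groups. It differed by -0.77 in gel against PBS, by -0.57 in PBS against uninjured and by -1.34 in gel against uninjured muscle (exact permutation p = 0.0286 each, adjusted 0.143). Pgm2/Pgm1 was -6.37 ± 0.72 in gel and -7.76 ± 0.25 in PBS libraries, and Pdpr/Pdp1 was -4.20 ± 0.24 in gel and -3.02 ± 0.50 in PBS libraries (SD, n = 4 each), both without overlap (exact permutation p = 0.0286, adjusted 0.143). Ldhb/Ldha was -4.38 ± 0.35 in PBS and -5.18 ± 0.13 in uninjured libraries (SD, n = 4 each), again without overlap (exact permutation p = 0.0286, adjusted 0.143), while its gel values spread with an SD of 1.11 around -5.13.

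Hk2/Hk1 was 2.38 ± 0.87 in gel, 4.07 ± 0.58 in PBS and 3.89 ± 0.30 in uninjured libraries (SD, n = 4 each), with gel 3 overlapping both other groups (exact permutation p = 0.0571 against each, adjusted 0.171). Sucla2/Suclg2, the balance of the ATP-forming and GTP-forming succinyl-CoA ligase, differed by 0.09 in gel against PBS (exact permutation p = 0.571, adjusted 0.745). Pdk1/Pdk2 had a mean of -5.30 in both gel and PBS libraries, with an SD of 0.53 in gel and 0.25 in PBS.

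**Figure D5:**
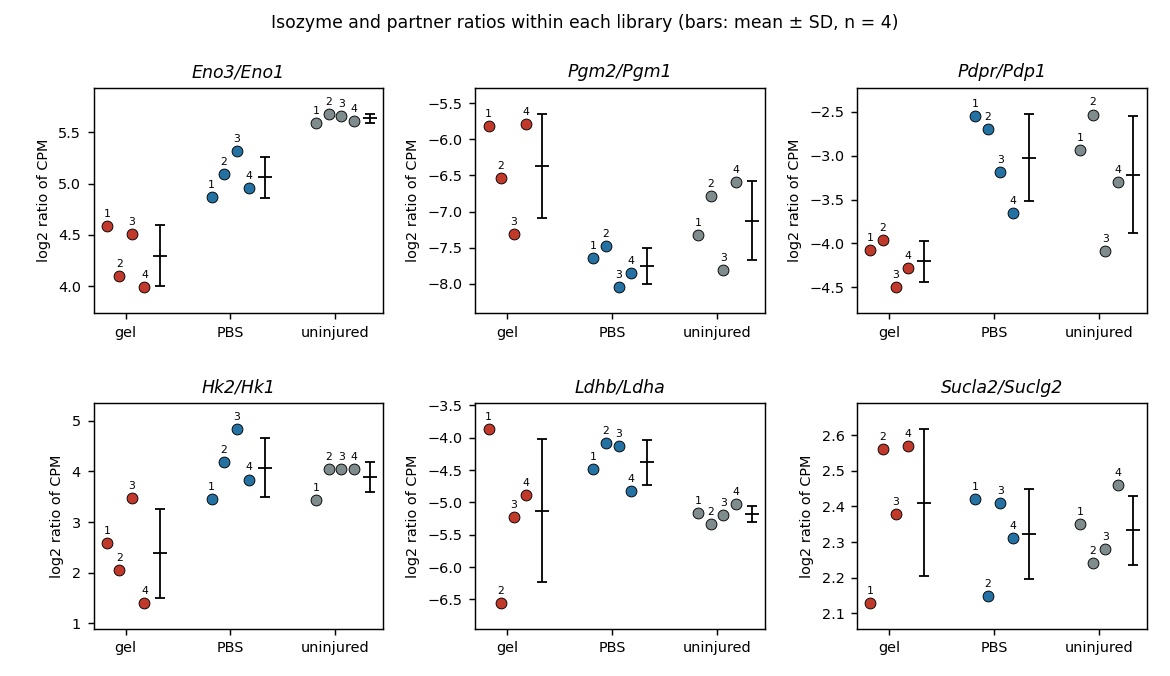
Log2 ratio of CPM within each library for 6 pairs of genes, with the replicate number above each point and the mean ± SD of 4 libraries beside each group; ratios are not per length, so only their change between groups is read. Eno3/Eno1 separates all 3 groups, and Sucla2/Suclg2 overlaps in all of them.

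Other genes of the same pathways were read from lists kept apart from the 50. Of 29 further glycolysis genes 21 had enough counts, and in gel against PBS 4 rose and 3 fell (33.3%), a share near the 29.8% of all genes. Pfkp, the platelet form of phosphofructokinase, rose by 1.72 ± 0.30 (log2, SE, adjusted p = 0.00208), to 9.05 ± 3.25 CPM in gel, against 2.74 ± 1.10 CPM in PBS libraries (SD, n = 4 each). Hk3, a hexokinase of white blood cells, had 9.17, 24.3, 0.610 and 18.5 CPM in gel and at most 0.240 CPM in PBS libraries and passed at adjusted p = 0.00374, with gel 3 again far below its group. Pgm2l1, which makes glucose bisphosphate, fell by 1.02 ± 0.19 (log2, SE, adjusted p = 0.00274) and Gpd2, the mitochondrial glycerol phosphate dehydrogenase, by 0.82 ± 0.17 (adjusted p = 0.00404).

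Of 9 further pyruvate genes 8 were tested, and 1 of them changed in gel against PBS (12.5%, against 29.8% of all genes). It was Pcx, pyruvate carboxylase, which fell by 1.01 ± 0.18 (log2, SE, adjusted p = 0.00214). Pdk4, the kinase induced by fasting, had 112, 38.1, 130 and 34.2 CPM in gel, 269, 115, 121 and 81.9 CPM in PBS and 250, 480, 639 and 607 CPM in uninjured libraries. Every gel library lay below every uninjured one, and Pdk4 fell by 2.66 ± 0.56 in gel against uninjured muscle (log2, SE, adjusted p = 0.00683), with log2 fold changes of -0.91 in gel against PBS (adjusted p = 0.221) and -1.75 in PBS against uninjured muscle (adjusted p = 0.0831). In gel against uninjured muscle 4 of the 8 fell, where 11.1% of all genes fell, the others being Pcx and the mitochondrial pyruvate carrier genes Mpc1 by 0.49 ± 0.14 (adjusted p = 0.0209) and Mpc2 by 0.42 ± 0.14 (adjusted p = 0.0361).

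Of 19 further genes around the citrate cycle 17 were tested, and 3 rose and 5 fell in gel against PBS (47.1%, against 29.8% of all genes). Ogdhl, a homologue of Ogdh, rose by 1.64 ± 0.25 (log2, SE, adjusted p = 0.00127), whereas Ogdh fell. The malic enzyme genes Me3 and Me1 fell by 0.89 ± 0.19 (adjusted p = 0.00425) and 1.11 ± 0.28 (adjusted p = 0.0112). Got1, the cytosolic aspartate aminotransferase, fell by 0.75 ± 0.19 in gel against PBS (adjusted p = 0.00839) and rose by 0.81 ± 0.19 in PBS against uninjured muscle (adjusted p = 0.0175).

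In PBS against uninjured muscle, 2 of the 21 further glycolysis genes rose and 2 fell (19%, against 6.17% of all genes), and no further pyruvate gene passed. Pfkfb4, a relative of Pfkfb1 and Pfkfb3, fell by 0.86 ± 0.16 in PBS (adjusted p = 0.0047) and by 1.02 ± 0.16 in gel-treated muscle (adjusted p = 0.000489), both against uninjured muscle. Slc16a1, a lactate and pyruvate transporter of wide distribution, rose by 0.76 ± 0.16 in PBS against uninjured muscle (adjusted p = 0.0114), and Gpd1l, a relative of Gpd1, by 0.65 ± 0.13 (adjusted p = 0.00912).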

How the data were processed

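RNA was sequenced from whole tibialis anterior in 12 libraries, 4 for each of 3 groups. The deposited values are raw read counts, each file holding 1 library with a row per gene symbol (0 columns left over), and the authors had not normalised them. The submitters' processing notes name STAR, edgeR and the build mm39, and the file headers name STAR too. No source used here gives the counting program, its strand setting or the annotation, so reads of overlapping, antisense or near-identical genes cannot be assigned with certainty. Totals ran from 15626086 to 22182483 counts, and intervals from counts would cover counting error only.

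From the counts, edgeR 4.0.16 in R 4.3.3 was run on the whole table. Genes were kept by filterByExpr (minimum count 10), libraries were scaled by TMM, and a robust quasi-likelihood model with 1 coefficient for each group was fitted to all 12 libraries, with 9 residual degrees of freedom. The Benjamini-Hochberg adjustment covered all 13499 genes, and an adjusted p under 0.05 was called. The SE is the log2 fold change over the root of its F statistic, and the prior count for log2 CPM was 2. Ratios used CPM plus 0.5. On simulated data for gel against PBS with 13499 genes, the test recovered 63% of 100 genes changed by 1 on the log2 scale. Of 100 genes changed by 2 it recovered 89%, with 5% false among all those called. The simulated shift was equal in all gel libraries, with none set apart like gel 3 and no pairs of legs. Fewer genes were changed in it than were called in the data. These rates therefore need not hold for the calls reported here.

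Libraries of a group are taken as different animals from the numbers in their names; otherwise p-values measure the spread between samples, which may be technical. No pair of replicates agreed within sampling noise (chi-square per gene of 6.5 or more, among genes with 20 or more reads per pair). Gel and PBS libraries of the same number are taken as legs of 1 animal, from the protocol and those names. The correlations of their deviations from the group means were 0.14, -0.06, 0.31 and 0.08. The fit with these pairs as a block was an alternative.

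The 50 genes, the lists and the naming rule were chosen with earlier results of these data known. By that rule, values in every library are given for up to 6 genes past the threshold in each step and comparison, smallest p first, and for 12 fixed genes; that the limit applies to each comparison was settled after values were seen. Further pathway genes are named up to 4 per list and comparison, plus Pdk4; some of these are not reported here. Alternatives were DESeq2 size factors, DESeq2 1.42.0, limma 3.58.1 voom, no filter, only the 2 groups compared, the block, and leaving out each library.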

Additional observations from a re-analysis of the deposited data

Results flagged for a closer look

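Within the 150 sets of 4 libraries (50 genes in 3 groups), 7 had a library set apart from the other 3 by Dixon's criterion, where chance gives about 5%, or 1 set in 20. Gel 3 stood apart in Suclg2, at a log2 CPM of 5.43 with the nearest other gel library at 4.80. Among PBS libraries, PBS 4 stood apart in Fbp2 at 4.64, against 5.01 for the nearest, and in Pdhx at 6.00, against 6.36, and PBS 3 in Tpi1 at 11.48, against 11.39. Among uninjured libraries, uninjured 4 stood apart in Pgm1 at 9.68, against 9.93, uninjured 3 in Tpi1 at 11.04, against 11.14, and uninjured 1 in Idh3b at 9.70, against 9.86.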

How the results depend on the processing

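The numbers of all genes called moved with the settings too. In the main fit they were 4022 in gel against PBS, 833 in PBS against uninjured and 3449 in gel against uninjured muscle, of 13499. With only the 2 groups compared in the fit, gel against PBS gave 4 glycolysis, 5 pyruvate dehydrogenase and 2 citrate cycle genes, PBS against uninjured muscle 7, 8 and 9, and gel against uninjured muscle 0 pyruvate dehydrogenase genes. Over all genes these fits called 2559 of 13233, 2339 of 12780 and 2974 of 13169, in the same order of comparisons. DESeq2 gave 11 glycolysis and 9 citrate cycle genes in gel against PBS, 3 and 6 in PBS against uninjured muscle, and 2 pyruvate dehydrogenase genes in gel against uninjured muscle. It called 4578, 1417 and 3975 of all 13499 genes in these comparisons. With no filter 1 glycolysis gene passed in PBS against uninjured muscle, with 757 of all 19931 genes. In limma voom 0 pyruvate dehydrogenase genes passed in gel against uninjured muscle, with 3080 of all 13499 genes. The replicate block gave 2 citrate cycle genes in gel against PBS, 7 glycolysis and 6 pyruvate dehydrogenase genes, and 2971 of all 13233 tested. Calls changed by the block are given with their genes, and it changed no other call of the 50. Leaving out 1 library, the counts for glycolysis, pyruvate dehydrogenase and the citrate cycle were 3 to 18, 5 to 8 and 2 to 13 in gel against PBS, 0 to 3, 1 to 6 and 0 to 8 in PBS against uninjured muscle, and 2 to 15, 0 to 4 and 1 to 6 in gel against uninjured muscle. All genes called then numbered 2456 to 5962, 378 to 1693 and 2275 to 5341 in these comparisons. No call reversed its sign. Of the fold changes near 0 that were not calls, limma voom turned Ldhb (-0.06) and the fit of 2 groups Pdhb (-0.01) in gel against uninjured muscle. Others turned when 1 library was left out, in gel against PBS Gpi1 (0 to 0.16), Fbp2 (-0.35 to 0.14), Gapdh (-0.12 to 0.06), Eno3 (-0.05 to 0.07), Ldha (-0.37 to 0.01) and Pdk1/Pdk2 (-0.17 to 0.25). In PBS against uninjured muscle these were Slc2a4 (-0.09 to 0.07), Hk2 (-0.18 to 0.01), Fbp2 (-0.11 to 0.08), Pgam2 (-0.11 to 0.01), Pdk3 (-0.42 to 0.08), Sdhb (-0.02 to 0.07), Hk2/Hk1 (-0.07 to 0.39), Sucla2/Suclg2 (-0.04 to 0.05) and Pdpr/Pdp1 (-0.10 to 0.42). In gel against uninjured muscle they were Gpi1 (-0.05 to 0.10), Fbp2 (-0.36 to 0.13), Tpi1 (-0.18 to 0.15), Pgk1 (-0.01 to 0.36), Ldha (-0.31 to 0.07), Ldhb (-0.17 to 0.39), Pdhb (-0.06 to 0.06), Dld (-0.01 to 0.19), Pdhx (-0.12 to 0.13), Cs (-0.10 to 0.09), Ogdh (-0.18 to 0.07), Sdhc (-0.14 to 0.05), Ldhb/Ldha (-0.37 to 0.52), Pfkfb3/Pfkfb1 (-0.14 to 0.40) and Pdk1/Pdk2 (-0.07 to 0.35). Apart from what the construction of each alternative shows, the cause was not tested. Pdk3, Pdpr, Pgam1 and Pgm2 had the lowest counts of the 50 genes, which limits their precision.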

Other observations

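In gel-treated muscle against uninjured muscle, the further glycolysis genes moved both ways, with 5 of 21 higher and 5 lower (47.6%, against 25.6% of all genes). Hk3, a hexokinase of white blood cells, passed at adjusted p = 0.00378, with 0.610 to 24.3 CPM in gel and at most 0.380 CPM in uninjured libraries. Pgm2l1 fell by 0.85 ± 0.19 (log2, SE, adjusted p = 0.00594), at 9.98 ± 3.2 CPM in gel and 17.9 ± 1.25 CPM in uninjured libraries (SD, n = 4 each). Around the citrate cycle, 3 of 17 further genes rose and 2 fell (29.4%). The malic enzyme genes split: Me2 rose by 1.04 ± 0.23 (adjusted p = 0.00514), while Me1 fell by 1.26 ± 0.28 (adjusted p = 0.00631) and Me3 by 0.77 ± 0.19 (adjusted p = 0.00862). Idh1, the cytosolic isocitrate dehydrogenase, rose by 0.58 ± 0.14 (adjusted p = 0.00686), with every gel library above every uninjured one, at 19.7 to 26.2 CPM against 13.7 to 18 CPM.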
